A study of Mus musculus with 8 samples.

Results

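The nuclear-encoded oxidative phosphorylation genes were taken by symbol from the GENCODE annotation of the mouse genome (build mm10): every protein-coding gene whose symbol starts with Nduf, Uqcr, Atp5 or Cox4 to Cox8, together with Sdha, Sdhb, Sdhc and Sdhd. The rule gave 94 gene entries of 21938 protein-coding genes, with 93 different symbols, because Atp5o has a normal and a very long entry. Grouped by symbol, they comprised 38 subunits and 8 assembly factors of complex I, 4 subunits of complex II and 8 members of complex III. Complex IV had 18 and complex V 18, where a few entries are assembly or coupling factors rather than subunits. The grouping follows the symbol alone, so Ndufa4 and Ndufa4l2 are counted with complex I, whichever complex their proteins join. The rule used names alone and no measured value.

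The electron transport chain of the inner mitochondrial membrane passes electrons from NADH and succinate to oxygen through complexes I to IV, and complex V, the ATP synthase, uses the proton gradient they build to make ATP. Most subunits are encoded in the nucleus and are made in almost every cell type, and neurons depend on them heavily because glycolysis alone does not meet their demand for ATP. A few subunits of complex IV, the cytochrome c oxidase, exist as pairs of genes in which a general isoform is replaced by another in heart and skeletal muscle, testis or lung. The promoters of the general genes are known as targets of the transcription factors NRF1, GABP, YY1 and ERR.

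Chromatin accessibility had been measured by ATAC-seq, in which the Tn5 transposase cuts accessible DNA, in the cerebral cortex of 8 male C57BL/6 mice, 1 mouse per library. The 4 BCAS mice had undergone bilateral carotid artery stenosis at 11 weeks of age, with a microcoil of 0.16 mm inner diameter around the right and of 0.18 mm around the left common carotid artery, a model of chronic cerebral hypoperfusion. The 4 sham mice had the operation without coils, and cortex was taken at 14 weeks of age, which is 3 weeks after surgery. The sample labels name the right cerebral cortex, whereas the study's quality table gives whole-brain cortex, with olfactory bulb and cerebellum removed. The deposited data were 1 list of peaks per mouse. A peak list holds no read counts, so the length of DNA covered by peaks, the presence of peaks and the rank of their height were compared.

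The lists held 107482 to 160848 peaks and covered 44.5 to 66.3 Mb per library, so covered lengths were scaled to the library's total. By the GC content of their reads, sham 1, sham 2, sham 3 and BCAS 1 fell in the higher class. Sham 4, BCAS 2, BCAS 3 and BCAS 4 fell in the lower class. This read GC class largely follows the group, so its part in any BCAS difference cannot be fully told apart. Of the markers of the labelled tissue, the excitatory neuron loci Camk2a and Cux2, the inhibitory neuron loci Gad1 and Gad2 and all 8 oligodendrocyte loci held peaks in every library, whereas the inhibitory neuron marker Sst was listed at 0 bp in all 8 and Vip had a peak in BCAS 3 alone. Of 6 testis loci, Acrv1, Prm1, Prm2 and Tnp1 were listed at 0 bp in all 8 libraries, and Tnp2 and Ldhc held peaks in every library. Of 12 microglia markers, Trem2 passed the test of locus coverage, in which 3.16% of all tested genes were called higher. Locus coverage was higher in BCAS at 11 of these 12 markers, and their median log2 difference was 0.16. Their part in the results below was not tested, and in bulk tissue a change in the share of a cell type and a change in accessibility per cell cannot be told apart. In sham 4 the members' promoter peaks ranked lower than elsewhere, with a median percentile of 54.6 against 65.5 to 72.8 in the other libraries. The median height differences, the unadjusted counts of members in height rank and the height difference of Ndufs8 are therefore also given without sham 4.

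Almost every general oxidative phosphorylation gene had an accessible promoter in every mouse. A promoter peak, that is a peak within 1 kb of a start site, was present at the same 87 of the 94 members in each of the 8 libraries. All 85 members outside the tissue-restricted isoforms and the long Atp5o entry had a promoter peak in every library. Over all protein-coding genes, 61.9% had a promoter peak in every library and 29.3% had none in any. The 7 members without a promoter peak in any library were Cox4i2, Cox6a2, Cox7b2, Cox8b, Cox8c and Ndufa4l2, all of them tissue-restricted isoforms, and the long Atp5o entry, whose start lies away from that of the normal entry.

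The upstream sequences of 2 isoform pairs are shown as examples in which both genes have a RefSeq promoter entry and the restricted isoform had no promoter peak, and those of Atp5l and Ndufaf1 because they carry the motifs counted below. Each run is the 250 bases before the start site in RefSeq (build GRCm38.p6, the assembly behind mm10), printed 5′ to 3′ on the strand of the gene, and capitals mark the letters of any of 9 motifs on either strand. Cox8a lies at chr19:7217617-7217866, minus strand, and Cox8b at chr7:140900447-140900696, minus strand. Cox7b lies at chrX:106015450-106015699, plus strand, and Cox7b2 at chr5:71548206-71548455, minus strand. Atp5l lies at chr9:44920743-44920992, minus strand, and Ndufaf1 at chr2:119662835-119663084, minus strand.
Cox8a: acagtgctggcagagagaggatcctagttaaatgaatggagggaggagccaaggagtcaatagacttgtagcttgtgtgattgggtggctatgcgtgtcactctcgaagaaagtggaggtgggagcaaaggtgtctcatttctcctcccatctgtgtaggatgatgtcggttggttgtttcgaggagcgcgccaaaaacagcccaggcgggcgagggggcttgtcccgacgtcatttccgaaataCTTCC
Cox8b: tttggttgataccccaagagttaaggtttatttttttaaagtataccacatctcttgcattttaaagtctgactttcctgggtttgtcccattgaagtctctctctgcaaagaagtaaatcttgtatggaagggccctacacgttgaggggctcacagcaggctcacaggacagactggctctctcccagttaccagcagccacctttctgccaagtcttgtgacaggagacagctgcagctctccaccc
Cox7b: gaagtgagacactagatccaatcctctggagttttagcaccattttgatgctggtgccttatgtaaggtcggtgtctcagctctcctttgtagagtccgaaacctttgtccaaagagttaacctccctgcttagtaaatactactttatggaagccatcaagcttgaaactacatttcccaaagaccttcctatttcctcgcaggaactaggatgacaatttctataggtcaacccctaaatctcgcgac
Cox7b2: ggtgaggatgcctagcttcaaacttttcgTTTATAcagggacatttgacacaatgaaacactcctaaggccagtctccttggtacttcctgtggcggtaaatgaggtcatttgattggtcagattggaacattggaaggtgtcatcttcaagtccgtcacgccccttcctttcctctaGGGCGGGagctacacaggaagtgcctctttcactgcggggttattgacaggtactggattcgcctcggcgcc
Atp5l: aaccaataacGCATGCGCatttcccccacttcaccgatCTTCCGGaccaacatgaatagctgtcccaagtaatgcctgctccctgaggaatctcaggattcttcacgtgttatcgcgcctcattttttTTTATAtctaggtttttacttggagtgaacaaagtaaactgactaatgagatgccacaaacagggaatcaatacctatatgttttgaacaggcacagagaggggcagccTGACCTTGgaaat
Ndufaf1: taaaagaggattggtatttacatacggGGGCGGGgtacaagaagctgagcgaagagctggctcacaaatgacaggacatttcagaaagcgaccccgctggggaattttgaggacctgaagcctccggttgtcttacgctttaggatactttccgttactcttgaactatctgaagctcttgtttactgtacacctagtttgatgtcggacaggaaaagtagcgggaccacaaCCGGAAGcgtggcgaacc

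The capitals that end the Cox8a run are the first letters of a GABP site that crosses the start site. Cox7b had no match of the 9 motifs, and Cox7b2 had an SP1 and a TATA match although no library had a peak at its promoter. Cox8b, the heart and skeletal muscle isoform of subunit VIII, had no capital letter in this window, with a CpG observed over expected ratio of 0.115 in its 300-base promoter entry. That ratio was 0.842 for Cox8a, the general isoform. Atp5l, subunit g of the ATP synthase, carried an NRF1, a GABP, a TATA and an ERR match within 250 bases.

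The isoform pairs separated by promoter coverage in the same way in sham and BCAS. Cox4i1, the general isoform of cytochrome c oxidase subunit IV, had a scaled promoter coverage of 1149, 804, 676 and 955 bp in the 4 sham and 692, 752, 889 and 852 bp in the 4 BCAS libraries. Cox4i2, the hypoxia-responsive isoform known from lung, was listed at 0 bp in all 8. The groups overlapped for Cox4i1, and the difference between the isoforms was present in every library.

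Cox8a had 844, 752, 651 and 985 bp in sham and 600, 759, 770 and 928 bp in BCAS, and Cox8b was at 0 bp in all 8 libraries. Cox7b had 649, 472, 481 and 538 bp in sham and 416, 569, 499 and 351 bp in BCAS, against 0 bp for the testis-enriched Cox7b2. Cox6a1 ranged from 452 to 717 bp over the 8 libraries, and its heart and muscle counterpart Cox6a2 stayed at 0 bp. Ndufa4 ranged from 673 to 1192 bp, and its relative Ndufa4l2, known as a hypoxia-induced gene, was at 0 bp. In each of these pairs the groups overlapped in the general isoform.

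Among the restricted isoforms, 2 of 8 did have a promoter peak in every library, and both were low. Cox6b2, the testis isoform of subunit VIb, had a median height at percentile 9.44 of all genes with a promoter peak in every library, against percentile 82.0 for Cox6b1. Cox7a1, the heart and muscle isoform of subunit VIIa, was at percentile 7.03, against percentile 96.0 for Cox7a2 and percentile 53.1 for Cox7a2l, a supercomplex assembly factor. Neither kept its promoter peak in every library when peaks were restricted to a −log10 q of at least 5, which left 85 of 94 members with one. Of 6 marker genes of skeletal and heart muscle, 2 had a promoter peak in every library.

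**Figure D1:**
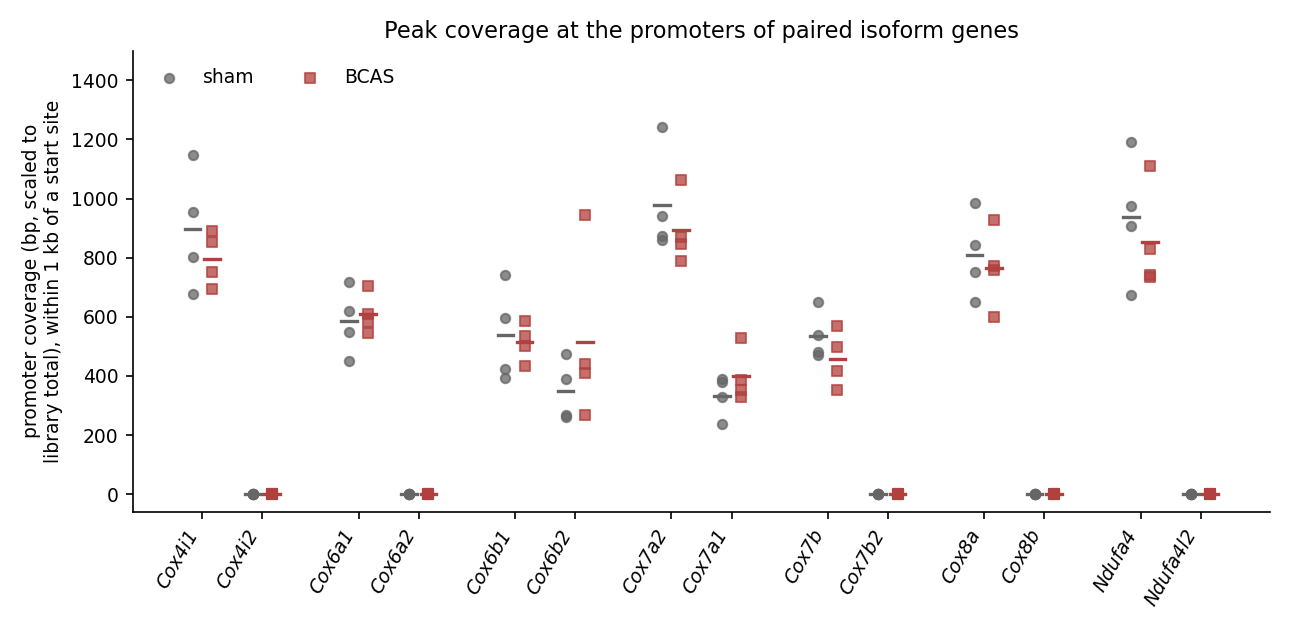
Promoter coverage in bp, scaled to the total covered length of each library, for 7 pairs of a general (left) and a tissue-restricted (right) isoform gene; circles are the 4 sham and squares the 4 BCAS libraries, and bars are group means. Cox4i2, Cox6a2, Cox7b2, Cox8b and Ndufa4l2 lie at 0 in all 8 libraries, and sham and BCAS overlap in every general isoform.

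The promoter peaks of the general members were high and sharply placed. Their median height percentile was 68.9 over 85 genes, against 50.2 for all genes with a promoter peak in every library, and 61 of 85 lay above the 50th percentile. The median distance of the strongest summit from the start site was 37.0 bp, against 60.5 bp over all such genes, while the median peak width was close, at 786 bp and 760 bp. By complex, the median height percentile was 83.4 for the complex I assembly factors, 68.7 for complex I subunits, 79.2 for complex II, 70.3 for complex III, 53.4 for complex IV and 68.9 for complex V. These are descriptions over gene sets, with no test.

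Within complexes the spread between genes was wide. Atp5e, subunit epsilon of the ATP synthase, ranked at percentile 99.3 and Atp5l, of the same complex, at percentile 17.6. Ndufab1, which is also the mitochondrial acyl carrier protein, ranked at percentile 98.8 and Ndufb10 at percentile 11.4. These 4 genes, chosen after their values were seen, span nearly the whole range of the members. Of the core subunits, Ndufv1, which binds NADH, stood at percentile 94.0, Uqcrc2 at percentile 92.5 and Uqcrfs1, the Rieske iron-sulfur protein, at percentile 89.6. Sdha, which holds the flavin of succinate dehydrogenase, stood at percentile 80.4. Ndufs1 was at percentile 39.8, Cox5a at percentile 53.2, Cox5b at percentile 80.5, Atp5b at percentile 48.5 and Atp5a1 at percentile 30.9. The 3 genes for the identical mature subunit c, which forms the rotor ring, were at percentile 64.7 (Atp5g1), 37.3 (Atp5g2) and 72.9 (Atp5g3).

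**Figure D2:**
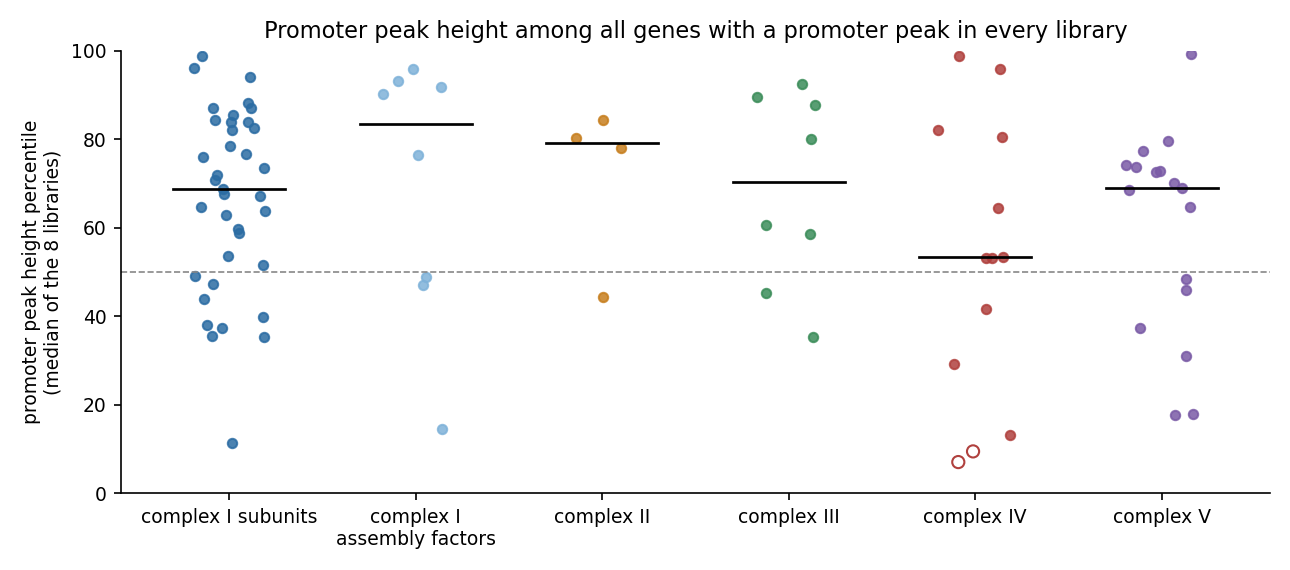
Median promoter peak height percentile over the 8 libraries (vertical axis, percent rank among all genes with a promoter peak in every library) for each member by complex; horizontal bars are medians of the filled points, open circles are Cox6b2 and Cox7a1, and the dashed line marks the 50th percentile. Medians range from 53.4 for complex IV to 83.4 for the complex I assembly factors.

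These genes were short and their accessible DNA was concentrated at the start. The median gene length was 7.67 kb against 17.4 kb over all protein-coding genes, and 33.1% of the covered length of their loci lay outside the promoter, against 69.2%. A start site of another protein-coding gene lay on the opposite strand within 1 kb in 31 of 85 general members (36.5%), against 16.1% of all genes with a promoter peak in every library. Where the same peak spans both starts it cannot be assigned to either gene. Only the distance between the starts was measured, not whether a peak covers both. The pairs included Sdhd with Timm8b at 98 bp, Sdha with Ccdc127 at 29 bp, Ndufs1 with Eef1b2 at 3 bp, Atp5a1 with Haus1 at 70 bp and Cox4i1 with Emc8 at 101 bp. Atp5j, a stalk subunit of the ATP synthase, lay 379 bp from the start of Gabpa, which encodes the DNA-binding subunit of GABP. This pair was picked out after its values were seen.

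Motif letters of known regulators were more frequent in these promoters than in promoters at large. RefSeq gave a promoter entry of 300 bases (250 before to 50 after the start) for 72 of the 85 general members and for 16714 protein-coding genes. The NRF1 letters GCATGCGC were in 16.7% of the members' promoters, in 3.75% of all promoters and in 5.37% of those with a promoter peak in every library. The YY1 letters AAGATGGC were in 13.9%, 3.27% and 4.48%. The ETS letters bound by GABP, CCGGAAG, were in 23.6%, 12.3% and 17.6%, and the ERR letters CAAGGTCA in 5.56%, 1.19% and 0.989%.

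The shares of the other motifs were as follows. CREB (TGACGTCA) was in 5.56% of the members, 2.38% of all and 3.26% of the accessible promoters, and NFY (AGCCAAT) in 15.3%, 9.75% and 11.7%. SP1 (GGGCGGG) was in 36.1%, 35.1% and 47.8%, so the members lay below the accessible promoters. TATAAA was in 6.94%, 13.2% and 6.97%, and the PU.1 letters GAGGAAGT in 1.39%, 3.25% and 2.50%. Both strands were searched, and the GABP and PU.1 letters, which share the ETS core, cannot coincide. The median GC content was 59.0% for the members, 56.7% for all promoters and 61.3% for the accessible promoters. The median CpG observed over expected ratio was 0.838, 0.593 and 0.764. Members without an entry included Atp5a1, Atp5mpl, Cox4i1, Cox4i2, Cox6a2, Cox6c, Cox8c, Ndufa2, Ndufa4l2, Ndufaf6, Ndufb9, Ndufs1, Sdhc, Uqcrb, Uqcrc2 and Uqcrq. A match of letters is a description of the sequence and shows no binding.

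**Figure D3:**
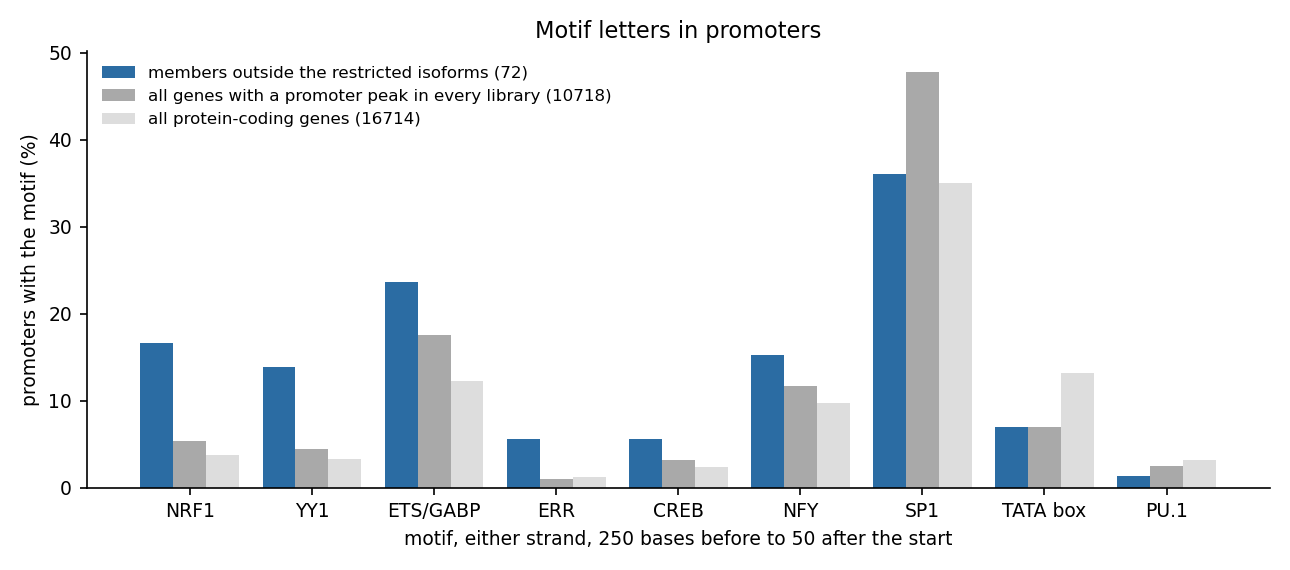
Share of promoters in percent (vertical axis) that hold the letters of each of 9 motifs on either strand, for 72 members outside the restricted isoforms, for all 10718 genes with a promoter peak in every library and for all 16714 protein-coding genes with a RefSeq entry. NRF1 stands at 16.7% in the members against 5.37% and 3.75%, and SP1 at 36.1% against 47.8% and 35.1%.

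Whether BCAS changed accessibility at these genes was tested first over the whole locus, that is, from 3 kb before to 3 kb after the gene. None of the 92 tested members passed the test in locus coverage (limma, adjusted p under 0.05), 0 higher and 0 lower in BCAS. Over all 17035 tested genes, 3.16% were called higher and 0.376% lower. At an unadjusted p under 0.05, 4 members were higher and 1 was lower, against 10.6% and 4.39% of all genes. With peak lists of equal length 10 were higher and 1 lower. The share of all genes with such lists is not given here, so these counts cannot be read as a shift of the members. The median log2 difference of the members was −0.03, against 0.00 for all genes, and it refers to log2 of scaled covered bp plus 200 bp. A difference in a single member had a median 95% interval of ±0.30, from ±0.17 to ±0.66, so smaller shifts were not detectable at this number of mice. The interval is not adjusted for the 17035 tests, so larger shifts could be missed too. Ndufs4, at −0.42, was not called. Cox8b, covered at 0 to 290 bp, and Cox8c, listed at 0 bp in all 8 libraries, were below the minimum of 200 bp.

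By complex the medians lay close to 0, with no test between complexes. The median log2 difference was 0.00 for the 38 complex I subunits, −0.08 for the 8 assembly factors, 0.12 for complex II, −0.02 for complex III, 0.00 for the 16 tested members of complex IV and −0.04 for complex V. Of the assembly factors, 7 of 8 had a value below 0, from −0.22 to 0.04, and none passed the test. The loci of all members together took 0.206% ± 0.0177 of the covered length in sham and 0.205% ± 0.0171 in BCAS (SD, n = 4 each), and the 8 values, from 0.181% to 0.227%, overlapped.

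**Figure D4:**
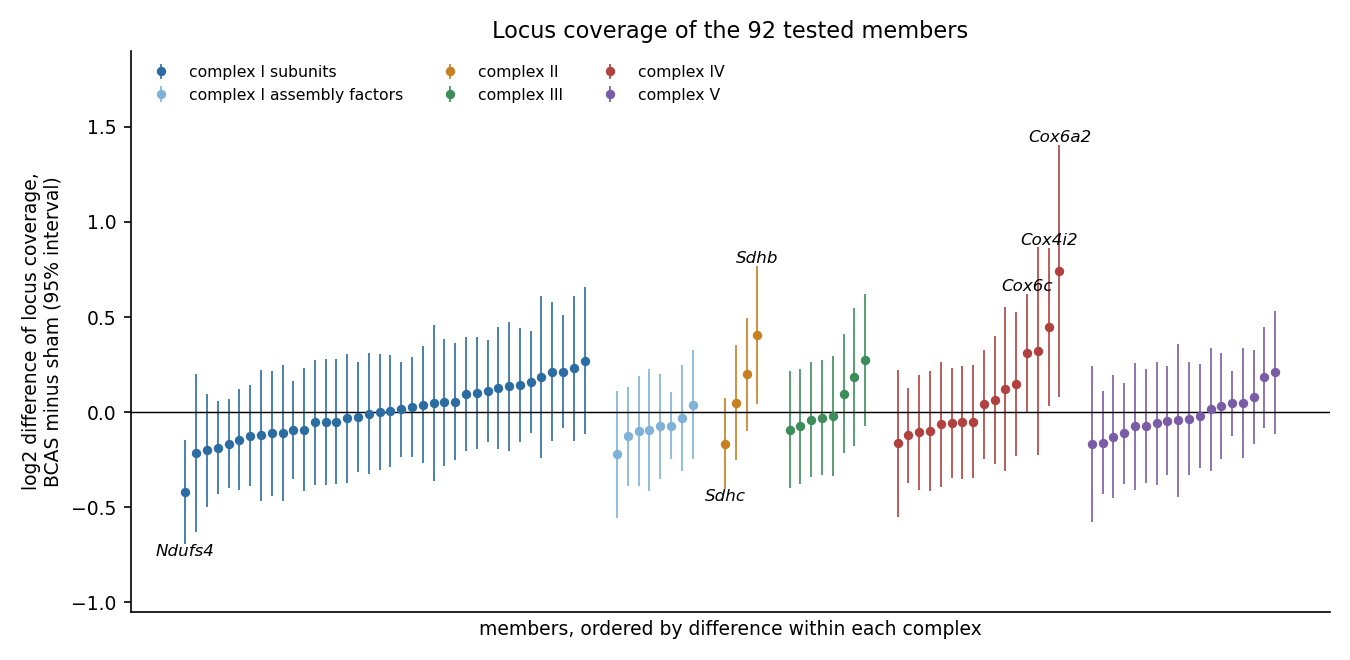
Log2 difference of locus coverage, BCAS minus sham (vertical axis), with its 95% interval from limma for the 92 tested members, ordered within each complex. No member passed an adjusted p of 0.05, and Ndufs4 has the most negative and Cox6a2 the most positive difference.

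Ndufs4 (ENSMUSG00000021764.8, chr13:114287795-114388258, minus strand), an accessory subunit of complex I in which mutations cause Leigh syndrome, had the most negative difference and the lowest adjusted p in locus coverage among the members. Its scaled locus coverage was 3864, 3957, 4060 and 4407 bp in sham and 3172, 3039, 2188 and 3780 bp in BCAS. All 4 BCAS libraries lay below all 4 sham libraries. The log2 difference was −0.42 (SE 0.13, adjusted p = 0.0913 by limma), which missed the threshold. Without BCAS 4 it was −0.53 with an adjusted p of 0.0361, and without BCAS 3 it was −0.28 with 0.269, both by limma.

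The values of Ndufs4 were also lower at the promoter and in parts of the gene body. Its promoter coverage was 784, 948, 835 and 1176 bp in sham and 541, 655, 679 and 719 bp in BCAS, again without overlap, with a log2 difference of −0.41 (SE 0.13, adjusted p = 0.214 by limma). Within 500 bp of the start sites the difference was −0.09. Of 11 regions in the locus, 4 had a peak in all 8 libraries. A region at chr13:114345355-114345662, within the gene, had a peak in 4 sham and 2 BCAS libraries, and one at chr13:114363532-114363910 in 3 sham and 1 BCAS library. The height percentile of its promoter peak ran from 43.1 to 75.7 in sham and from 49.5 to 86.5 in BCAS, so the groups overlapped and the mean was higher in BCAS.

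The groups were without overlap at 3 of 92 members in locus coverage, with Ndufs4 and Sdhc below and Cox6a2 above. Over all tested genes, every BCAS library lay below every sham library in 2.47% and above in 6.03%. Sdhc (chr1:171127165-171150603, minus strand), a membrane anchor of complex II, had 1563, 1535, 1477 and 1575 bp in sham and 1177, 1388, 1453 and 1395 bp in BCAS. Its log2 difference was −0.16 (SE 0.11, adjusted p = 0.578 by limma).

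Cox6a2 (chr7:128205435-128206387, minus strand) had 262, 197, 174 and 0 bp in sham and 274, 331, 659 and 295 bp in BCAS. The log2 difference of 0.74 (SE 0.31, adjusted p = 0.255 by limma) was the largest of the members and missed the threshold. It came from 2 regions outside the gene body, 1 of them at chr7:128208225-128208568, 1838 bp upstream of the start, with a peak in 3 sham and 4 BCAS libraries. The other had a peak in BCAS 3 alone, which was the highest library.

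Sdhb (chr4:140961203-140979193, plus strand), the iron-sulfur subunit of complex II, had 780, 1246, 821 and 1148 bp in sham and 1553, 1277, 1794 and 969 bp in BCAS. BCAS 1, BCAS 2 and BCAS 3 exceeded all sham libraries and BCAS 4 did not, with a log2 difference of 0.41 (SE 0.17, adjusted p = 0.254 by limma). Without BCAS 4 the difference was 0.55 with an adjusted p of 0.0998, and without BCAS 3 it was 0.29 with 0.585, both by limma. Its promoter did not share this direction, with a log2 difference of −0.05 (SE 0.15). A region within the gene at chr4:140975375-140975798 had a peak in 3 BCAS and 0 sham libraries.

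Cox4i2 (chr2:152754173-152765037, plus strand) had 284, 459, 557 and 739 bp in sham and 669, 927, 705 and 687 bp in BCAS. Sham 4 lay within the BCAS range, and the log2 difference was 0.45 (SE 0.20, adjusted p = 0.282 by limma). Cox6c, a general complex IV subunit, had a log2 difference of 0.31 (adjusted p = 0.326) and Cox6b2 one of 0.32 (adjusted p = 0.661). At the lower end, Ndufaf1, an early assembly factor of complex I, and Ndufa4l2 had −0.22 each, Ndufb9 −0.20 and Ndufb2 −0.19, with adjusted p of 0.512 or more by limma.

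**Figure D5:**
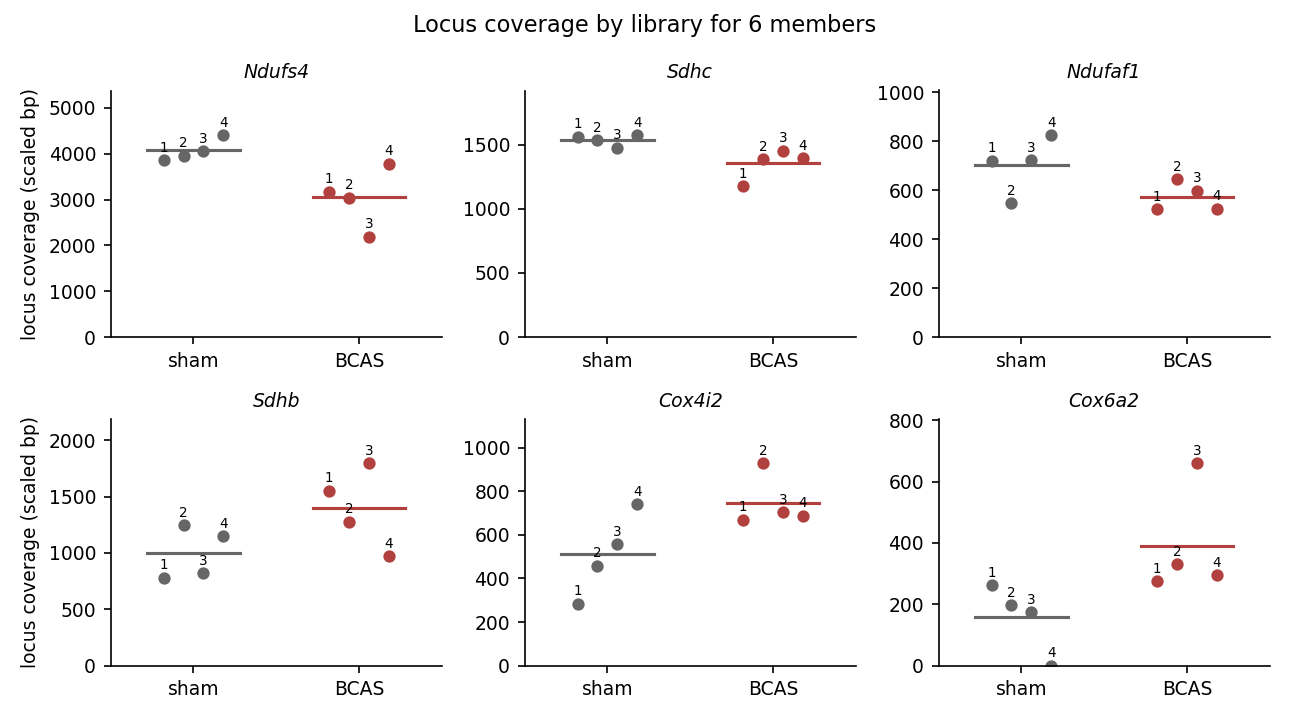
Scaled locus coverage in bp (vertical axes, from 0) in each sham and BCAS library for 6 members; numbers are replicate numbers and bars group means. BCAS lies below sham without overlap for Ndufs4 and Sdhc and above for Cox6a2, and the groups overlap for Ndufaf1, Sdhb and Cox4i2.

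Of the core subunits, Sdhb (0.41) and Sdhc (−0.16, with groups that did not overlap) are described above. The others listed here gave differences near 0 with intervals on both sides. Ndufs1 was at 0.04, Ndufv1 at −0.05, Sdha at 0.20, Sdhd at 0.05, Uqcrc1 at 0.18, Uqcrc2 at −0.04, Uqcrfs1 at −0.03, Cox5a at −0.05, Cox5b at 0.15, Atp5a1 at −0.05, Atp5b at 0.05 and Atp5c1 at −0.04, each as the log2 difference of locus coverage. None of these passed the test, and their groups overlapped. The general isoforms Cox4i1 (0.04), Cox6a1 (−0.10), Cox6b1 (0.12), Cox7a2 (−0.11), Cox7a2l (−0.05), Cox7b (−0.16), Cox8a (−0.06), Ndufa4 (−0.03), Atp5g1 (−0.06), Atp5g2 (−0.02) and Atp5g3 (−0.03) did not pass it either. Cox7a1 stood at 0.07, Cox7b2, whose locus holds peaks away from its start, at −0.12, and the long Atp5o entry at 0.05.

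In promoter coverage 0 of 87 tested members were called in either direction by limma. At an unadjusted p under 0.05, 1 was higher and 1 was lower, against 5.15% and 1.52% of all genes. Over all 14223 tested genes 1.05% were called higher and 0.00703% lower, and the median log2 difference was −0.04 for the members and −0.02 for all. BCAS lay below sham without overlap at 2 of 87 members, Ndufs4 and Sdhc, and above at 0, against 0.83% and 2.41% of all genes. The higher member, named after its values were seen, was Atp5h, subunit d of the ATP synthase, with 520, 476, 678 and 570 bp in sham and 615, 809, 972 and 940 bp in BCAS. BCAS 1 fell within the sham range, and the log2 difference was 0.44 (SE 0.14, adjusted p = 0.212 by limma).

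In the height rank of the promoter peak, 0 of 87 members were called in either direction by limma. At an unadjusted p under 0.05, 3 were higher and 1 was lower, against 5.63% and 5.77% of all genes. Without sham 4, 1 was higher and 3 were lower at that threshold, and the share of all genes is not given here. Over all 13577 tested genes 0.442% were called higher and 0.147% lower. The median difference was 0.73 percentile points for the members and −0.27 for all genes, and without sham 4 it was −0.35 for the members and −0.25 for all. With the read GC class as covariate it was 2.77 and −0.42, and 12 members were higher and 3 lower at an unadjusted p under 0.05, with 0 called by limma. The share of all genes with this covariate is not given here, so these counts cannot be read as a shift of the members. The groups did not overlap at 3 of 87 members: Uqcrb and Ndufs6 lay above and Ndufs8 below in BCAS, against 3.14% and 3.8% of all genes. These 2 higher members were named after their values were seen, and their differences without sham 4 are not given here. Uqcrb, a subunit of complex III, differed by 4.98 and Ndufs6, of complex I, by 11.9 percentile points, each with an adjusted p of 0.361 by limma.

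Ndufs8 (chr19:3908863-3912774, minus strand), which carries iron-sulfur clusters of complex I, had the most negative difference in height rank. Its promoter peak stood at percentile 72.3, 70.8, 70.9 and 62.4 in sham and at percentile 43.4, 46.6, 48.8 and 55.3 in BCAS. The difference was −20.6 percentile points (SE 4.91, adjusted p = 0.0979 by limma), which missed the threshold, and by −log10 q in place of fold enrichment it was −6.05 with an adjusted p of 0.453. Without sham 4 the difference was −22.6 (adjusted p = 0.0805 by limma). Its promoter coverage was equal in both groups, with a log2 difference of 0.00 (SE 0.13).

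The members' loci held 249 merged regions, and 146 of them (58.6%) had a peak in all 8 libraries, against 36.2% of all 197916 regions. Of the 157 member regions over 1 kb from the start sites, 55 (35.0%) did. Regions with a peak in all 4 BCAS and in 0 sham libraries numbered 3 (1.20%), against 1.62% of all regions. Sham-only regions numbered 0, against 0.0945%. The BCAS-only regions lay at Cox4i2, Ndufa9 and Ndufs8, all more than 1 kb from a start site. Among the 157 more distant member regions they made up 1.91%.

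The sequences of these 3 regions are shown because they are the member regions that separated the groups by presence. They are read from the plus strand of GRCm38.p6, and capitals mark the letters of any of the 9 motifs on either strand. The Cox4i2 region, at chr2:152756570-152756833, lies within an intron of the gene, 1476 bp after the start. The Ndufa9 region, at chr6:126836719-126837014, lies within an intron, 12111 bp after the start. The Ndufs8 region, at chr19:3914605-3914860, lies 1831 bp before the start of Ndufs8 and within an intron of Aldh3b1, whose nearest start is 14948 bp away.
Cox4i2 region: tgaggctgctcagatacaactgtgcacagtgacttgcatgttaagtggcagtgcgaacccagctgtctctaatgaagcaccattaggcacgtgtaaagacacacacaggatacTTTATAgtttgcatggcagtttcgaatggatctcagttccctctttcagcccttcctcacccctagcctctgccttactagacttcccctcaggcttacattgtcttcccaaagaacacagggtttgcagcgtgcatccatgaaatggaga
Ndufa9 region: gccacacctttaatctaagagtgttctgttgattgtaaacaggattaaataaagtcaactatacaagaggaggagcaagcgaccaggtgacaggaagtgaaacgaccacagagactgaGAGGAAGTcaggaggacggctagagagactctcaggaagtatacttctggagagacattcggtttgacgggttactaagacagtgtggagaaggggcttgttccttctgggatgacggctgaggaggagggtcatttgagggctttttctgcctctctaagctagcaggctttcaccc
Ndufs8 region: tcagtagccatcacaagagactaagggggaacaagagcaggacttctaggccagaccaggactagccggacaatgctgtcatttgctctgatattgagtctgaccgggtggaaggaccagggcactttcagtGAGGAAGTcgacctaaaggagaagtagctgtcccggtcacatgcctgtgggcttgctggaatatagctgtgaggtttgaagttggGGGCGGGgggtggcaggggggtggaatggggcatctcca

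The Ndufa9 and the Ndufs8 region each hold the PU.1 letters GAGGAAGT, and the Cox4i2 region does not. Of all 26460 regions of 250 to 300 bp, 3.88% hold these letters, and of the 550 BCAS-only regions of that length 20.7% do. PU.1 is the myeloid transcription factor of microglia and macrophages, and the summed locus coverage of the 12 microglia markers was 420 to 542 ppm of the covered length in sham and 514 to 574 in BCAS. The sham and BCAS ranges of this sum overlapped, and the part of microglia in these regions was not tested. The Ndufs8 region also holds SP1 letters, found in 3.38% of all regions of that length and in 6.18% of the BCAS-only ones. The Cox4i2 region holds a TATAAA match, found in 15.2% and 10.5%.

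Next to the Ndufa9 region, a region at chr6:126836011-126836484 had a peak in 1 sham and 4 BCAS libraries. The locus coverage of Ndufa9, an accessory subunit of complex I, was 1429, 1041, 1335 and 1471 bp in sham and 1228, 1531, 1300 and 1873 bp in BCAS. The groups overlapped, with a log2 difference of 0.14 (SE 0.14, adjusted p = 0.762 by limma). That of Ndufs8 was 1619, 1361, 1036 and 1256 bp in sham and 1333, 1622, 1895 and 1380 bp in BCAS, also with overlap and a log2 difference of 0.21 (SE 0.14, adjusted p = 0.558 by limma).

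Other genes of the pathway were compared in the same way. Of 34 further assembly factors and electron carriers, such as Cycs, Surf1 and Sco1, 0 were called in locus coverage by limma, with 0 higher and 1 lower at an unadjusted p under 0.05, and the median log2 difference was −0.05. A promoter peak was present in every library at 33 of 34, and Sdhaf1 had one in 5 libraries. Of 16 regulators of mitochondrial genes, 1 was called, against 3.16% called higher and 0.376% called lower over all tested genes. This was Nfe2l2, the transcription factor of the antioxidant response, with 1933, 2144, 1956 and 2237 bp in sham and 2589, 2809, 3157 and 3036 bp in BCAS. All 4 BCAS libraries exceeded all sham libraries, as they did at 6.03% of all tested genes. The log2 difference of Nfe2l2 was 0.45 (SE 0.11, adjusted p = 0.0253 by limma). Nrf1 stood at 0.05, Gabpa at −0.03, Ppargc1a, which encodes the coactivator PGC-1α, at 0.02 and Tfam, the packaging factor of mitochondrial DNA, at −0.05, all with an adjusted p of 0.916 or more by limma.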

How the data were processed

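ATAC-seq peaks of 8 mouse cortex libraries (4 sham, 4 BCAS) were deposited as 1 MACS2 narrowPeak list per mouse on mm10. Per the submitters' processing notes, reads had been trimmed with Trim Galore and aligned with Bowtie2 2.3.4.3, with SAMtools 1.9. The authors' lists hold a fold enrichment (ratio) at each summit, a deposited −log10 p and −log10 q, and a deposited integer score, and the score was not used. Read depth is not given by the lists.

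Peaks were overlapped with GENCODE M21 basic genes. Locus coverage (gene body and 3 kb on each side) and promoter coverage (1 kb on each side of each start site) were scaled to the library's total covered length, log2-transformed with a pseudocount of 200 bp and filtered at a mean of 200 bp. Height was the percentile of the highest promoter peak by the authors' fold enrichment. All 3 were tested over all genes with limma 3.58.1 (R 4.3.3) and Benjamini-Hochberg adjustment at 0.05, with no covariate and no replicate block, after a test on simulated data. Regions were merged on overlap of 1 bp. Named members were those called, the 5 largest and 5 smallest locus differences, those lacking a promoter peak, those with group-specific regions, the isoform families and the core subunits. The members and lists were chosen with earlier results of these data known. The labels do not link replicate numbers across groups. Results for some items are not reported here.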

Additional observations from a re-analysis of the deposited data

Results flagged for a closer look

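Of 160 groups of 4 libraries examined for the named members, 9 held a library apart from the other 3 by Dixon's criterion for the gap over the range, at the 95% level, and chance gives about 1 in 20. In BCAS, Cox6a2 locus coverage was 659 bp in BCAS 3 against 274 to 331 bp in the others, Cox4i2 was 927 bp in BCAS 2 against 669 to 705 bp, Atp5c1 was 1353 bp in BCAS 4 against 946 to 1006 bp, and Cox6c was 1071 bp in BCAS 1 against 1502 to 1544 bp. In sham, Ndufb9 locus coverage was 1455 bp in sham 1 against 983 to 1047 bp. The promoter height percentile of Ndufs4 was 75.7 in sham 3 against 43.1 to 47.6, and that of Ndufs8 was 62.4 in sham 4 against 70.8 to 72.3. In BCAS it was 46.3 for Cox7a2l in BCAS 1 against 58.8 to 61.1, and 49.6 for Cox8a in BCAS 4 against 69.1 to 70.5.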

How the results depend on the processing

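No member was called in promoter coverage or height rank under any alternative run. In locus coverage 1 member, Ndufs4, was called lower with the replicate block (adjusted p = 0.0306 by limma) and without BCAS 4, so leaving out each library gave 0 to 1 member called lower. Its adjusted p ran from 0.0306 to 0.562. The replicate numbers did not pair the mice (correlations of −0.160, −0.0109, −0.0967 and 0.138). With the replicate block, 160 of all genes were called lower in locus coverage, 277 higher and 15 lower in promoter coverage, and 37 higher and 8 lower in height rank. The cause of the changes below was not tested.

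Over all genes, locus calls (538 higher, 64 lower) were 222 and 1 without scaling, 291 and 24 when centred, and 245 and 8 with the read GC class as covariate. With that covariate the median promoter difference of all genes was −0.12 and of the members −0.14. Leaving out each library gave 284 to 666 and 25 to 90. Promoter calls (149 higher, 1 lower) became 96 higher without scaling, 67 and 3 when centred, 50 and 0 with a pseudocount of 50 bp, 44 higher with the number of peaks and 25 higher with the GC class. Lower calls were 2 at a −log10 q of at least 5, 4 at equal list length, 9 with a pseudocount of 1000 bp, 2 without the minimum, 4 with a promoter of 500 bp and 6 with 3 kb. Leaving out each library gave 52 to 244 and 0 to 9. Height calls (60 higher, 20 lower) were 91 higher by −log10 q, 21 and 1 with the GC class and 9 lower with the number of peaks, and 23 to 65 and 4 to 28 without each library. Sham-only member regions numbered 2 at equal list length (Ndufaf2 and Ndufs4) and 0 to 1 without each library. BCAS-only ones numbered 3 to 4, and Cox4i2 was not among them at a −log10 q of at least 5 or at equal list length. TATAAA was in 2.78% of 200 bp windows around the summits. Among 10 extreme members, Ndufb9 changed sign in locus coverage in 1 of 194 values, and 24 of 40 named entries changed sign at least once. Peak lists without read counts and 4 mice a group limit the precision.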

Other observations

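Markers of other cell types were compared in locus coverage by limma. Median log2 differences were −0.08 for 7 tested excitatory neuron, 0.04 for 5 inhibitory neuron, 0.06 for 7 astrocyte, −0.03 for 8 oligodendrocyte, 0.10 for 6 endothelial and 0.03 for 5 pericyte markers, and −0.16 for 4 skeletal and heart muscle and −0.19 for 2 testis genes, with 0 called in each of these lists. At an unadjusted p under 0.05, 2 endothelial markers were higher, and 1 inhibitory neuron and 1 muscle marker were lower. Sst, an inhibitory neuron marker, was listed at 0 bp in all 8 libraries. Endothelial markers summed to 215 to 272 ppm of the covered length in sham and 291 to 319 in BCAS, and the sums were not tested. Of these 6 markers, 4 had a difference above 0, with Flt1 at 0.63 and Pecam1 at 0.32. Cldn5 (−0.12) and Cdh5 (−0.10) were lower. The locus coverage of Flt1 was 1657 bp in sham 4, against 4618 to 4851 bp in the other sham libraries. Trem2, a receptor of microglia, had a log2 difference of 0.68 (SE 0.15, adjusted p = 0.0184 by limma).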
